A study of Mus musculus with 2 samples.

Results

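Nuclei fitting the profile of layer 6 corticothalamic excitatory neurons were examined in single-nucleus RNA sequencing (snRNA-seq) of the mouse brain, with 924 nuclei out of 26705 kept barcodes. The members were selected on their own UMI counts of 9 genes, of the same matrices that are described here. A kept barcode had at least 500 detected genes and at most 5% of its unique molecular identifiers (UMIs, counts of single captured transcripts) on mitochondrial genes. A member carried at least 1 UMI of Slc17a7, the vesicular glutamate transporter of cortical excitatory neurons, and no UMI of Gad1 or Gad2, the GABA-synthesizing enzymes of inhibitory neurons. It carried at most 1 UMI of Slc17a6, the vesicular glutamate transporter of thalamic and other subcortical neurons, and UMIs of at least 3 of 5 deep-layer genes, namely Foxp2, Tle4, Hs3st4, Syt6 and Zfpm2. The whole brains came from female wild-type C57BL/6 mice, which the study's methods call C57BL/6J and describe as 4 to 6 weeks old at purchase. The ShamRT-28d library, labelled untreated and described in the methods as mock-irradiated, held 542 members, and the WBRT-28d library, from mice given whole-brain irradiation in 5 fractions of 2 Gy (10 Gy in all) 28 days before harvest, held 382. Each library pooled the frozen whole brains of 2 mice, so there was 1 library per condition and no replicate: no test between conditions could be made, and a difference between conditions cannot be told apart from a difference between libraries.

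Corticothalamic neurons lie in layer 6, the deepest cell layer of the cortex, and send their axons to the thalamus, where they excite relay cells and, through the reticular nucleus, also inhibit them. They are known by the transcription factors Foxp2, Tle4 and Tbr1 and, in the mouse, by the neurotensin receptor Ntsr1. Their neighbours are the intratelencephalic neurons of layers 2 to 6, which project within the cortex, the extratelencephalic neurons of layer 5, and the layer 6b neurons left over from the embryonic subplate, which express Ctgf, Cplx3 and Nxph4.

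The ShamRT-28d matrix held 11469 barcodes with 45511469 UMIs and the WBRT-28d matrix 15986 barcodes with 68423922 UMIs, and 41 kept barcodes occurred in both. No member barcode occurred among the members of both libraries, and 6 members matched some kept barcode of the other library. Members were deep nuclei, with a median of 9145.5 UMIs in ShamRT-28d and 7564 in WBRT-28d, against 2259 and 2542 in all other kept barcodes. Scrublet, which scores each barcode against simulated mixtures of barcodes, called 38 of the 542 ShamRT-28d members doublets (7.01%, 95% exact binomial interval 5.01 to 9.50) and 109 of the 382 WBRT-28d members (28.5%, 24.1 to 33.3). The same step called 725 of 11037 and 3134 of 15668 kept barcodes. Its automatic score limit differed between the libraries, at 0.266 in ShamRT-28d and 0.214 in WBRT-28d, and the rates expected from the barcode numbers were 9.18% and 12.8%. All intervals given here cover counting error only. Because the members of the WBRT-28d library held more called doublets, results are also given for a narrower set, chosen after the data were seen, of members with at least 4 of the 5 deep-layer genes and no doublet call. It held 340 ShamRT-28d and 106 WBRT-28d nuclei.

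The rule fixed that its own genes were high, and their values are given only as a description. Foxp2, a forkhead transcription factor, was at 514 CPM in ShamRT-28d and 303 CPM in WBRT-28d members (counts per 1e+06 UMIs, with UMIs summed over the nuclei of a set). Hs3st4, a heparan sulfate sulfotransferase, was at 2535 and 1506 CPM, Zfpm2, a cofactor of GATA factors, at 1300 and 659 CPM, and Tle4, a corepressor, at 521 and 299 CPM. Syt6, a synaptotagmin, was at 100 and 46.0 CPM and was seen in 249 of 542 (45.9%) and 78 of 382 (20.4%) nuclei. Foxp2 was seen in 75.3% and 61.3% of members, and in 11.7% and 23.3% of microglia nuclei, a cell type that should lack it, whose median depth was 2302.5 and 3116.5 UMIs. Called doublets were 18.7% and 43.1% of those microglia nuclei, and their part in the Foxp2 share was not tested.

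The number of deep-layer genes seen in a nucleus separated the members into unlike classes. Garnl3 and Grik3, a GTPase-activating protein and a kainate receptor subunit that mark deep-layer neurons and were not used by the rule, were low up to 3 detected genes and high at 4 and 5. In ShamRT-28d, Garnl3 was at 286 CPM in the nuclei just outside the threshold, which had 2 of the 5 genes, at 315 CPM with 3, at 886 CPM with 4 and at 1055 CPM with all 5. In WBRT-28d it was at 205, 307, 580 and 1338 CPM in the same order. Grik3 was at 96.4, 166, 482 and 496 CPM in ShamRT-28d and at 86.9, 179, 366 and 497 CPM in WBRT-28d. Nuclei with 3 of the 5 genes, just inside the threshold, were thus closer in these levels to those just outside it than to nuclei with all 5. By Garnl3 and Grik3 the label fitted best the nuclei with 4 or 5. Nuclei with 4 genes were unlike between the libraries. Rorb, a gene of layer 4 and 5, was at 434, 39.3 and 23.9 CPM with 3, 4 and 5 genes in ShamRT-28d. In WBRT-28d it was at 434, 417 and 73.7 CPM. Called doublets were 3.90% and 28.1% of the nuclei with 4 genes. The libraries also differed in the number of deep-layer genes per member. Nuclei with 3 genes were 188 of 542 members in ShamRT-28d (34.7%, 30.7 to 38.9) and 244 of 382 in WBRT-28d (63.9%, 58.8 to 68.7), whereas nuclei with all 5 were 200 (36.9%, 32.8 to 41.1) and 42 (11.0%, 8.04 to 14.6).

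**Figure D1:**
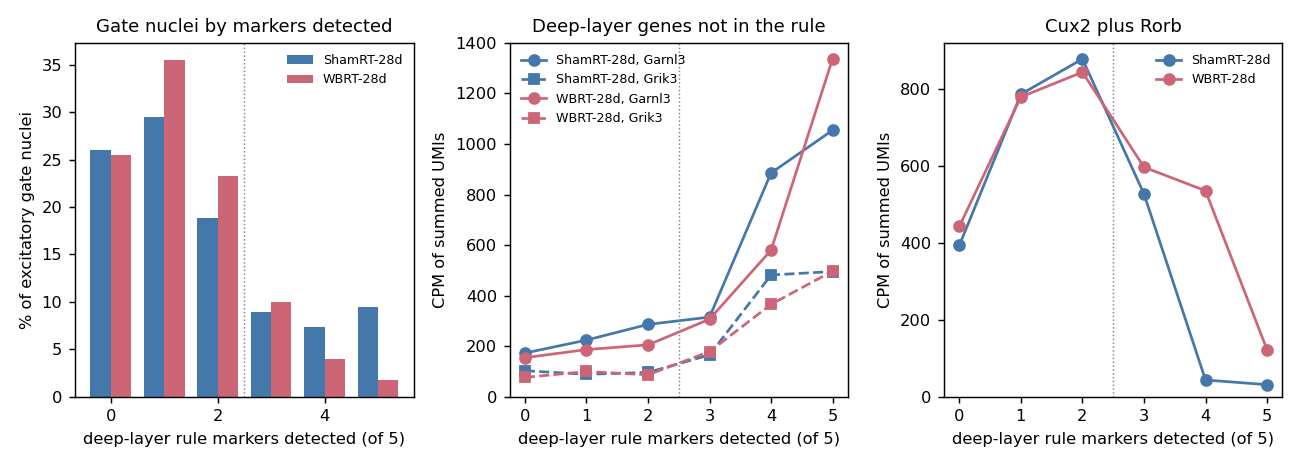
Excitatory gate nuclei (Slc17a7 present, Gad1 and Gad2 absent, at most 1 Slc17a6 UMI) by the number of the 5 deep-layer rule genes detected, with members to the right of the dotted line. The left panel gives the percent of gate nuclei in each library, the middle panel the CPM of Garnl3 and Grik3, and the right panel the CPM of Cux2 plus Rorb; Garnl3 at 5 genes was at 1055 CPM in ShamRT-28d and 1338 CPM in WBRT-28d.

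Garnl3 was also compared at the remaining limits of the rule. Members with no Slc17a6 UMI had it at 774 CPM in ShamRT-28d and 563 CPM in WBRT-28d. Members with 1 Slc17a6 UMI, 43 in ShamRT-28d and 36 in WBRT-28d, had it at 613 and 244 CPM. The 16 and 5 nuclei left out only for 2 Slc17a6 UMIs had it at 785 and 102 CPM. Nuclei left out for a single UMI of Gad1 or Gad2 numbered 39 and 89, with Garnl3 at 623 and 358 CPM. Nuclei with the deep-layer genes but no Slc17a7 UMI numbered 351 and 646, with Garnl3 at 400 and 236 CPM.

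Some deep-layer genes that the rule did not use were higher in members than in other cortical excitatory nuclei of the same library. A pair of reference sets was drawn from gate nuclei with fewer than 3 of the 5 genes: Cux2 nuclei (at least 2 UMIs of the upper-layer transcription factor Cux2 and at most 1 of Rorb; 136 in ShamRT-28d and 201 in WBRT-28d) and Rorb nuclei (at least 2 UMIs of Rorb, the nuclear receptor of layer 4 and 5, and at most 1 of Cux2; 212 and 301). Grik3 was at 378 CPM in ShamRT-28d members against 21.9 CPM in Cux2 nuclei and 96.9 CPM in Rorb nuclei, and at 273 CPM against 54.2 and 90.5 CPM in WBRT-28d. Bcl11b, the zinc-finger factor of corticofugal neurons, was at 169 CPM against 8.40 and 65.6 CPM in ShamRT-28d and at 142 CPM against 39.8 and 43.0 CPM in WBRT-28d. Sox5, which acts in deep-layer neuron development, was at 576 against 251 and 314 CPM, then at 499 against 319 and 337 CPM. All of these were above both reference sets in both libraries, with ratios from 1.48 to 20.1.

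Other deep-layer genes were thinly sampled or not apart. Ntsr1, the defining receptor, had 50 UMIs in ShamRT-28d and 20 in WBRT-28d members, or 8.33 CPM (95% exact Poisson interval 6.18 to 11.0) and 5.61 CPM (3.43 to 8.66), and stood near the 8.40 and 5.49 CPM of Cux2 nuclei. Tbr1 was at 22.7 CPM in ShamRT-28d members against 10.1 and 11.9 CPM in Cux2 and Rorb nuclei, but at 17.4 CPM against 16.5 and 22.6 CPM in WBRT-28d. Sulf1, an extracellular sulfatase, was at 119 CPM against 33.6 CPM in Cux2 nuclei in ShamRT-28d and at 48.2 against 44.6 CPM in WBRT-28d. The layer 6b genes were present at low levels: Ctgf at 31.3 and 6.17 CPM, Nxph4 at 2.83 and 0.280 CPM and Cplx3 at 2.67 CPM in ShamRT-28d with no UMI in WBRT-28d members. Members with at least 2 of 6 layer 6b genes numbered 38 of 542 (7.01%, 5.01 to 9.50) and 22 of 382 (5.76%, 3.64 to 8.59).

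Across the 6593 genes with at least 100 UMIs in each library, 293 (4.44%) were at least 1.5-fold higher in members than in Cux2 nuclei in both libraries and 202 (3.06%) were lower by that much. Against Rorb nuclei 192 of 6732 genes (2.85%) were higher and 274 (4.07%) lower. Outside the rule's genes, the first against Cux2 nuclei, ranked by the smaller of the ratios in the libraries, was Arhgap25, a GTPase-activating protein, at 62.3 against 2.52 CPM in ShamRT-28d (ratio 24.7, 95% exact conditional interval 8.39 to 120) and at 32.2 against 2.75 CPM in WBRT-28d (11.7, 4.46 to 43.8). Crym, a thyroid hormone binding protein, followed at 8.66-fold and 10.3-fold, and Sema3e, a secreted guidance cue, at 8.01-fold and 35.6-fold. Cdh18, a type II cadherin, was among the 12 leading genes against both sets: it was 6.35-fold and 7.93-fold above Cux2 nuclei and 4.04-fold and 3.89-fold above Rorb nuclei. Rell1 and Grik3 were the other genes leading against both. Against Rorb nuclei the leading genes also held Ptpru, a receptor tyrosine phosphatase (4.80-fold and 4.10-fold), the collagen gene Col5a1 (6.69-fold and 4.09-fold), the cadherin Cdh9 (6.45-fold and 3.96-fold), the ryanodine receptor Ryr3 (3.48-fold and 3.16-fold) and the kainate receptor subunit Grik4 (3.27-fold and 3.11-fold). Genes lower in members than in Rorb nuclei were led by astrocyte-associated genes, with Slc1a3, a glial glutamate transporter, at 38.3 against 249 CPM in ShamRT-28d and 165 against 564 CPM in WBRT-28d. Rorb is also known in astrocytes, and the part of such RNA in the Rorb set was not tested.

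Markers of other cells were at higher levels in the WBRT-28d members than in the ShamRT-28d members. The 6 layer 2/3 genes summed to 236 CPM in ShamRT-28d and 527 CPM in WBRT-28d, with 5 of 6 higher, and the 9 oligodendrocyte genes to 626 and 1356 CPM, with 9 of 9 higher. Interneuron genes summed to 385 and 870 CPM with 7 of 10 higher and with Gad1 and Gad2 at 0 by the rule. Astrocyte genes summed to 191 and 500 CPM, microglia genes to 122 and 296 CPM and vascular genes to 18.3 and 165 CPM, with every gene of the 3 lists higher. The 12 deep-layer genes outside the rule went the other way, from 2156 to 1588 CPM, and none of the 12 was higher in WBRT-28d. In the narrower set the deep-layer sums were 2757 and 2778 CPM, close to each other, while layer 2/3 genes stayed at 111 and 247 CPM, astrocyte genes at 103 and 213 CPM and vascular genes at 10.5 and 104 CPM. Genes of layer 6 intratelencephalic and claustral neurons (49.1 and 115 CPM), of layer 4 and 5 intratelencephalic neurons (301 and 534 CPM), of near-projecting neurons of layer 5 (411 and 678 CPM), of thalamic and other Slc17a6 neurons (58.1 and 124 CPM) and of oligodendrocyte precursors (33.7 and 107 CPM) were also higher in WBRT-28d members in sum. Sums for extratelencephalic neurons of layer 5 (64.5 and 81.6 CPM), striatal neurons (1190 and 1581 CPM), dentate granule cells (227 and 246 CPM) and hippocampal pyramidal neurons (107 and 100 CPM) lay closer together, and layer 6b genes summed to 122 and 68.4 CPM. Some of these sums were also higher in WBRT-28d in the reference sets. Ratios in Cux2 and Rorb nuclei were 3.88 and 3.12 for interneuron genes, 2.51 and 2.06 for oligodendrocyte genes and 2.55 and 3.82 for vascular genes. They were 1.15 and 2.33 for astrocyte genes, 1.16 and 1.84 for microglia genes, and 0.984 and 1.22 for layer 2/3 genes, which include Cux2. These marker levels move with the conditions, and their part in the differences given next was not tested.

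**Figure D2:**
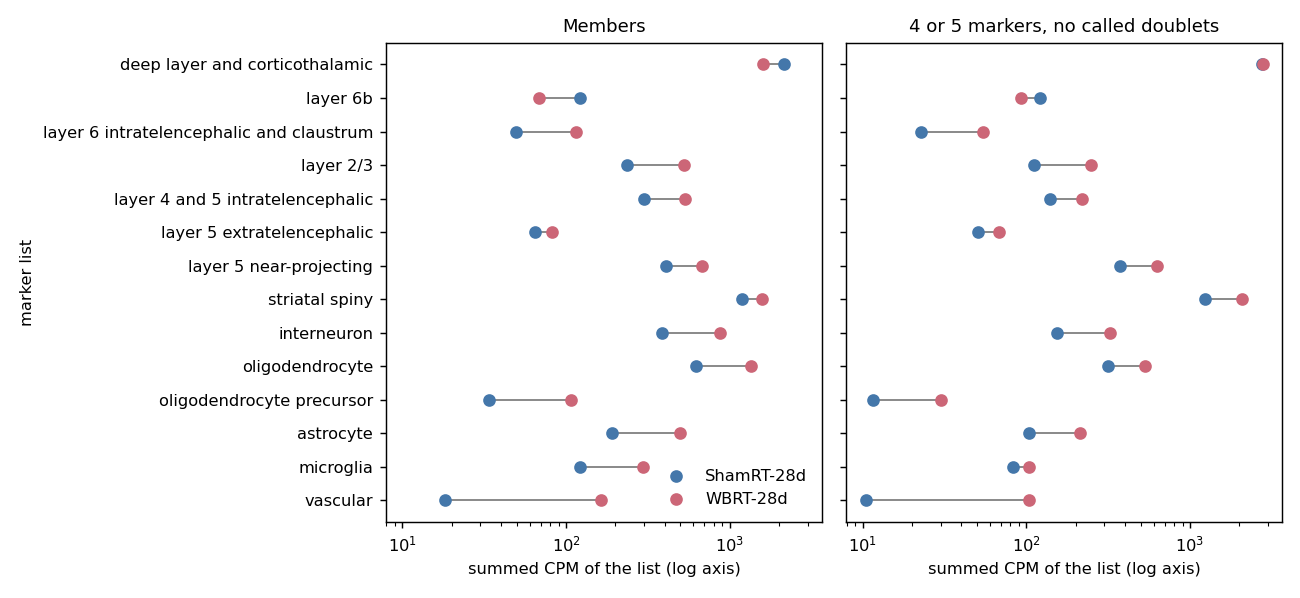
Summed CPM (log axis) of 14 marker lists in ShamRT-28d (blue) and WBRT-28d (red) nuclei, for all members on the left and for members with 4 or 5 deep-layer genes and no doublet call on the right. Deep-layer genes stand at 2156 and 1588 CPM in all members and at 2757 and 2778 CPM in the narrower set, where the markers overlap; vascular genes are lowest in ShamRT-28d in both panels.

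Members made up a smaller share of the WBRT-28d library. They were 542 of 11037 kept barcodes in ShamRT-28d (4.91%, 95% exact binomial interval 4.52 to 5.33) and 382 of 15668 in WBRT-28d (2.44%, 2.20 to 2.69). Among excitatory gate nuclei, of which there were 2105 and 2436, they were 25.7% (23.9 to 27.7) and 15.7% (14.3 to 17.2). The gap was wider for nuclei with 4 or 5 of the deep-layer genes, which were 3.21% (2.89 to 3.55) and 0.881% (0.740 to 1.04) of kept barcodes, and for the narrower set, at 3.30% and 0.846% of barcodes without a doublet call. Among the reference sets, Cux2 nuclei were 1.23% (1.03 to 1.46) and 1.28% (1.11 to 1.47) of kept barcodes and Rorb nuclei 1.92% (1.67 to 2.19) and 1.92% (1.71 to 2.15). Of gate nuclei, Cux2 nuclei were 6.46% (5.45 to 7.60) and 8.25% (7.19 to 9.42) and Rorb nuclei 10.1% (8.82 to 11.4) and 12.4% (11.1 to 13.7), a larger share in WBRT-28d. Both sets exclude members by definition, so their shares of the gate are not independent of the member share. With each barcode thinned to 2000 UMIs, which left out 4540 and 5363 shallower barcodes, members were 3.16% and 0.868% of barcodes and 21.4% and 7.71% of gate nuclei. A smaller share in a library of dissociated frozen nuclei does not tell fewer neurons from fewer recovered nuclei or from a lower level of the genes that the rule asks for. Each of the 5 genes was lower in WBRT-28d members, but the rule selected on these genes. With 3, 4 and 5 of them detected, their sum was at 1759, 5473 and 7360 CPM in ShamRT-28d. In WBRT-28d it was at 1967, 3416 and 5389 CPM. The cause of the smaller share was not tested.

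**Figure D3:**
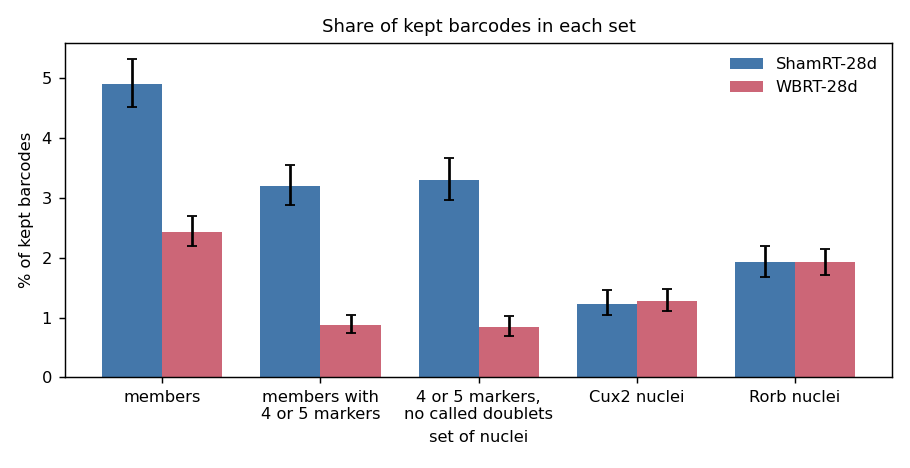
Percent of kept barcodes in each set of nuclei, with bars from 0 and 95% exact binomial intervals that cover counting error only (1 library per condition); the bar for 4 or 5 markers without called doublets is a percent of kept barcodes without a doublet call. Members stand at 4.91% in ShamRT-28d and 2.44% in WBRT-28d, while the Cux2 and Rorb nuclei used for reference have overlapping intervals.

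Between the conditions, 9018 genes had at least 100 UMIs over the members of both libraries. Of these, 999 (11.1%) were at least 1.5-fold higher in WBRT-28d and 450 (4.99%) were lower by that much. After centring all ratios on their median, 853 genes were higher and 587 lower. In the narrower set 392 of 6074 genes (6.45%) were higher and 440 (7.24%) lower. The 12 leading genes in each direction, ranked by the interval bound nearest to 1, are described next. They were drawn from genes at least as high in members as in other kept barcodes in the library where the gene is higher. Of the 12 higher genes only Sgsm1 was also above other barcodes in ShamRT-28d, and the other 11 met this limit through WBRT-28d alone. Of the 12 lower genes Fgf10 and Ctgf met it through ShamRT-28d alone. The ranking used this contrast, so ratios and counts of these genes are a description and support nothing.

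The gene with the lowest ratio in WBRT-28d members was Cpa6. Cpa6, a secreted carboxypeptidase (chromosome 1, 10324720 to 10719945, mm10), had 384 UMIs in ShamRT-28d and 28 in WBRT-28d members, or 64.0 and 7.85 CPM, a ratio of 0.123 (95% exact conditional interval 0.0805 to 0.180). It was seen in 108 of 542 ShamRT-28d nuclei and 17 of 382 WBRT-28d nuclei. Fgf10, a fibroblast growth factor, was at 30.8 and 5.05 CPM (0.164, 0.0949 to 0.266). Col12a1, which encodes a collagen chain (chromosome 9, 79598991 to 79718831), was at 73.8 and 20.5 CPM (0.277, 0.213 to 0.356). All 3 were lower in WBRT-28d members, and the ratios of Cpa6, Fgf10 and Col12a1 in the narrower set were 0.174, 0.0719 and 0.213. Cpa6 was also lower in all other kept barcodes, at 25.1 and 4.46 CPM, so its difference was not limited to members.

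Pdzrn4, a PDZ and RING finger protein, was seen in most ShamRT-28d members. It was at 836 CPM in ShamRT-28d and 299 CPM in WBRT-28d (ratio 0.358, 0.335 to 0.383), and at 1145 and 404 CPM in the narrower set (0.353). In Cux2 nuclei it was at 322 and 334 CPM and in Rorb nuclei at 187 and 206 CPM, with ratios of 1.04 and 1.10. Mgat4c, an N-glycan branching enzyme, was at 2214.5 and 964 CPM (0.435, 0.419 to 0.452), against 557 and 544 CPM in Cux2 nuclei (0.977) and 310 and 452 CPM in Rorb nuclei (1.46). Tox, an HMG-box nuclear factor, was at 547 and 212 CPM (0.387, 0.357 to 0.419), with a ratio of 0.890 in Cux2 and 0.585 in Rorb nuclei. Levels of Pdzrn4 and Mgat4c in WBRT-28d members stayed above those of Rorb nuclei, and whether the ratios differ between cell types was not tested.

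The rest of the 12 were Ctgf (0.197), Prss35, a serine protease family member (0.217), Cwh43 (0.299), Nr4a3, an activity-induced nuclear receptor (0.355), Rgs11, a regulator of G protein signalling (0.381), and Cdh9 (0.394). Of Ctgf's 188 UMIs in ShamRT-28d members, 70.2% came from 10 nuclei, so that its value rests on few nuclei. Rgs11 was also lower in both reference sets, at a ratio of 0.541 in Cux2 and 0.356 in Rorb nuclei, Nr4a3 at 0.419 and 0.697 and Cdh9 at 0.577 and 0.642. In all other kept barcodes Cdh9 was at 101 and 64.2 CPM and Cwh43 at 7.10 and 2.26 CPM. Of the 12 genes, only Ctgf (5.77 and 6.27 CPM) and Pdzrn4 (184 and 237 CPM) were not lower in those barcodes. Over all genes with at least 100 UMIs, 5.06% were lower past 1.5-fold in Cux2 and 6.28% in Rorb nuclei, and of the 12 genes 4 and 7 were. Among nuclei with all 5 deep-layer genes and no doublet call, 192 in ShamRT-28d and 37 in WBRT-28d, 12 of the 12 were lower past 1.5-fold, against 10.9% of the 4181 genes tested there. In the nuclei with all 5 deep-layer genes Pdzrn4 was at 1257 and 408 CPM (0.324, 0.273 to 0.383), Tox at 582 and 157 CPM (0.270, 0.203 to 0.351) and Col12a1 at 125 and 22.0 CPM (0.176, 0.0754 to 0.352). Of the 12 genes, 12 were lower past 1.5-fold with 4 deep-layer genes (6.51% of all genes) and 5 with 3 deep-layer genes (4.07%). With 3 deep-layer genes Pdzrn4 was at 329 and 287 CPM (0.873) and Col12a1 at 18.2 and 30.0 CPM (1.64, 0.996 to 2.73). The contrast that chose these genes includes the same nuclei, so these counts describe where the difference lies and are no independent support.

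The 12 leading genes higher in WBRT-28d included several known from other cortical layers. Rorb was at 170 CPM in ShamRT-28d and 385 CPM in WBRT-28d members (ratio 2.26, 2.08 to 2.45). Unc5d, a netrin receptor of upper-layer neurons, was at 264 and 742 CPM (2.81, 2.64 to 2.99), Pdzrn3, a ubiquitin ligase, at 147 and 351 CPM (2.39) and Pparg, a lipid-sensing nuclear receptor, at 33.3 and 75.7 CPM (2.27). In ShamRT-28d Rorb nuclei Unc5d, Pdzrn3 and Pparg were at 867, 468 and 80.2 CPM, above their level in members of that library. Within members with 3 deep-layer genes and no doublet call, Rorb was at 339 and 385 CPM (1.14), Pdzrn3 at 380 and 437 CPM (1.15), Pparg at 93.4 and 92.3 CPM (0.988) and Nell1, a secreted EGF-like protein, at 380 and 396 CPM (1.04), while Unc5d was at 635 and 941 CPM (1.48, 1.36 to 1.61). In the narrower set Rorb was at 27.3 and 115 CPM (4.21) and Pparg at 2.95 and 22.0 CPM (7.47). There 10 nuclei held 72.5% of the Rorb UMIs in ShamRT-28d and 73.9% in WBRT-28d. The Pparg values rested on 11 UMIs in 6 ShamRT-28d nuclei and 22 UMIs in 8 WBRT-28d nuclei. Nuclei with at least 2 UMIs of Cux2 and Rorb together were 17.3% (14.2 to 20.8) and 39.8% (34.8 to 44.9) of members and 5.88% (3.63 to 8.94) and 19.8% (12.7 to 28.7) of the narrower set. The part of that makeup in the ratios was not tested beyond these values.

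The other genes of this group were not all like the layer genes. Erdr1, a gene of the pseudoautosomal region, was at 107 and 434 CPM in members (4.04, 3.69 to 4.44), at 98.9 and 396 CPM in the narrower set and at 128 and 397 CPM in all other kept barcodes, and was higher to a like extent in Cux2 nuclei (3.30) and Rorb nuclei (3.32). Sgsm1, a modulator of small G proteins, was at 71.6 and 156 CPM (2.17, 1.91 to 2.47), and its ratio was 3.08 in the narrower set, 2.29 in Cux2 nuclei and 1.65 in Rorb nuclei. Fam53b was at 16.0 and 39.3 CPM (2.45, 1.88 to 3.22), with 2.28 in the narrower set. Rmst, a long noncoding RNA, was at 44.3 and 134 CPM (3.02), at 6.28 in the narrower set and at 8.17 with 4 deep-layer genes. In the narrower set 10 nuclei held 65.3% of its 75 ShamRT-28d UMIs and 79.4% of its 126 WBRT-28d UMIs. With all 5 deep-layer genes only 2 WBRT-28d UMIs of Rmst were left (18.0 and 5.51 CPM, 0.306, 0.0360 to 1.18). Bnc2, a zinc-finger gene, had the highest ratio (3.83 and 29.2 CPM, 7.61, 4.81 to 12.5), but 15 WBRT-28d nuclei held all of its 104 UMIs and 10 of them 93.3%. Plcxd2 (2.71) and Smoc2, an extracellular calcium-binding protein (2.50), complete the 12. Past 1.5-fold in the same direction were 11 of the 12 in the narrower set (Bnc2 with 0 and 4 UMIs among them), 7 in Cux2 nuclei and 3 in Rorb nuclei, where 6.45%, 7.61% and 13.5% of all genes were (19.7% of genes in Rorb nuclei in either direction). With 4 deep-layer genes and no doublet call 11 were (6.72% of all genes), with all 5 deep-layer genes 8 were (8.08%), and with 3 deep-layer genes 7 were (6.28%). The narrower set is part of the contrast that chose these genes, and the limit on their level favours genes high in WBRT-28d, so nothing is read from these counts.

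**Figure D4:**
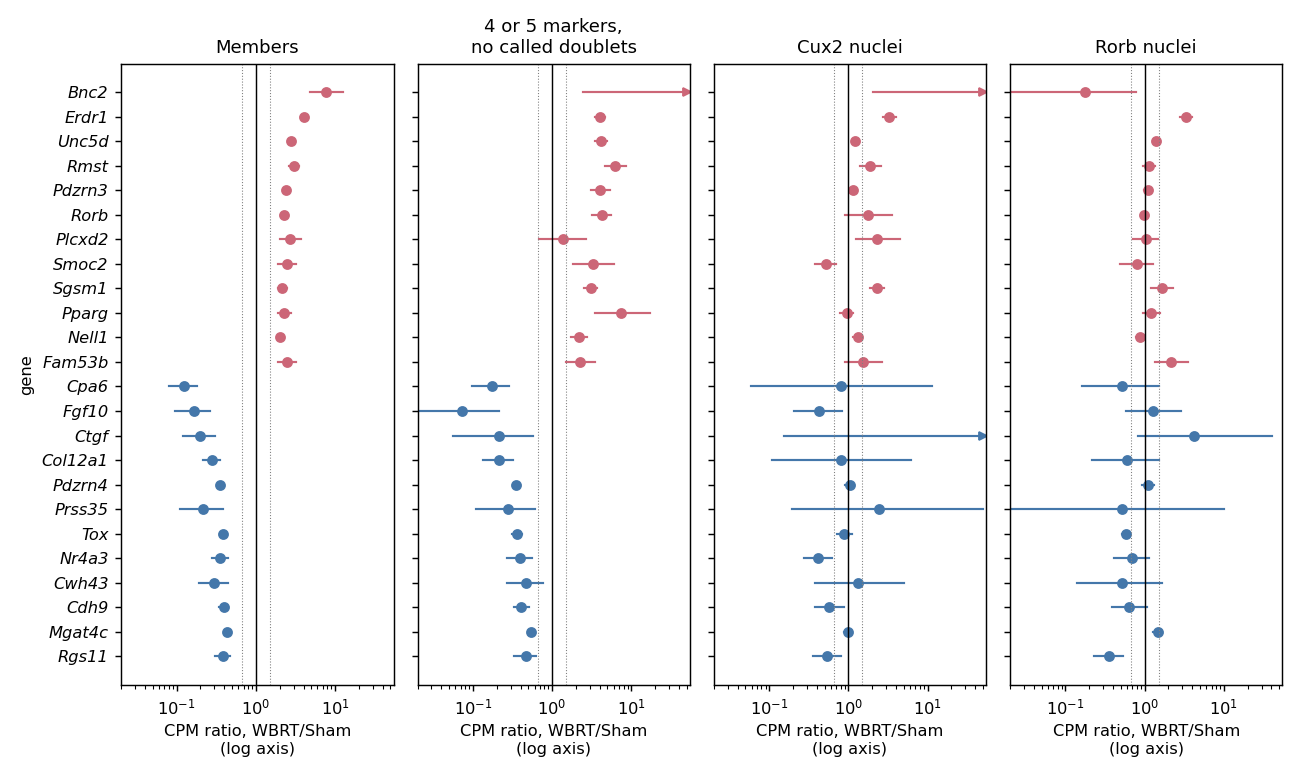
CPM ratio of WBRT-28d over ShamRT-28d (log axis) with 95% exact conditional intervals for the 12 leading genes in each direction, in members, in members with 4 or 5 deep-layer genes and no doublet call, and in the Cux2 and Rorb nuclei of the same libraries. Dotted lines mark 1.5-fold, and arrows or lines that reach the edge mark values beyond the axis; Pdzrn4 lies at 0.358 and 0.353 in the member panels and at 1.04 and 1.10 in the reference panels, while Erdr1 is at 3.30 or above in all 4.

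Receptors for neuromodulators, through which acetylcholine, serotonin, noradrenaline and peptides act on these neurons, were lower for 25 of 31 genes in WBRT-28d members but for 16 of 28 in the narrower set. Of the 31 measured genes (at least 20 UMIs), 9 were lower past 1.5-fold and 2 higher, and the median log2 ratio was -0.45, beside 0.09 over all 13380 genes measured, of which 40.9% were lower and 59.1% higher, 7.78% and 17.3% past 1.5-fold. Htr1f, a serotonin receptor, was at 596 CPM in ShamRT-28d and 269 CPM in WBRT-28d (ratio 0.451, 0.419 to 0.484). Oprm1, the mu opioid receptor, was at 179 and 73.5 CPM (0.410, 0.357 to 0.469), and the alpha-1 adrenergic receptors Adra1a (41.3 and 14.9 CPM, 0.360) and Adra1b (20.8 and 7.85 CPM, 0.377) were lower as well. Their ratios in the narrower set were 0.585, 0.549, 0.204 and 0.229, whereas Chrm3, a muscarinic receptor, moved from 0.723 to 0.929. Of 28 genes measured in the narrower set 16 were lower (49.3% of all genes) and 8 of them past 1.5-fold (13.3% of all genes), and the median was -0.16, beside 0.01 over all genes. Ratios in Cux2 nuclei were 0.884 for Htr1f, 0.505 for Oprm1 and 0.363 for Adra1a, so the latter pair was low there too.

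Immediate early genes, which neuronal activity induces, were lower for 16 of 18 measured members of the list, with a median log2 ratio of -0.44. Over all genes measured 40.9% were lower in members and 49.3% in the narrower set. Npas4 was at 22.5 and 7.01 CPM (0.312, 0.195 to 0.480) and Homer1, a postsynaptic scaffold, at 744 and 488 CPM (0.655, 0.620 to 0.693). In the narrower set 11 of 18 were lower, with Npas4 at 0.272 and Homer1 at 0.870. Ratios for Npas4 in Cux2 and Rorb nuclei were 1.15 and 0.889, from fewer nuclei. Nr4a3, of the same list, was at 0.355 in members and at 0.419 and 0.697 in Cux2 and Rorb nuclei. GABA receptor genes were lower for 11 of 14, with a median of -0.26, and for 8 of 13 in the narrower set, with a median of -0.24. Past 1.5-fold in members were 1 lower and 2 higher, beside 7.78% and 17.3% of all genes. In the narrower set 1 was lower and 1 higher past that fold, beside 13.3% and 12.1% of all genes. Gabrg3 was at 1109 and 632 CPM (0.569, 0.543 to 0.597) and remained at 0.611 in the narrower set, while Gabrb1 was at 1206 and 1200 CPM (0.995) in all members and 0.759 in the narrower set, and Gabra2 was higher (179 and 279 CPM, 1.56).

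Glutamate receptors showed no common direction, with 10 of 24 higher and a median of -0.09. Gria2, an AMPA receptor subunit, was at 2036 and 1485 CPM (0.729, 0.706 to 0.753), and Gria3 at 1067 and 639 CPM (0.599). Grm8 was at 1035 and 589 CPM (0.569) but at 0.831 in the narrower set, and Grin3a, an NMDA receptor subunit, at 35.7 and 89.7 CPM (2.52). Subunits of the ionotropic classes thus lay on both sides of 1. Medians near 0 change side with scaling: after centring on the median of all genes, 7 of the 22 lists had a median above it, against 13 above 0. Potassium channel genes had a median of 0.03, sodium, calcium and HCN channel genes -0.11, vesicle release genes 0.01 and synaptic adhesion genes -0.03. Within these lists Kcnj3, an inward rectifier subunit gated by G proteins, was at 657 and 347 CPM (0.528, 0.495 to 0.563) and at 0.464 in the narrower set. Cacna2d3, a calcium channel subunit, was at 337 and 656 CPM (1.95, 1.84 to 2.07) and at 3.29 in the narrower set. Both channel genes kept their direction in the narrower set. Syt1, the calcium sensor of fast release, was at 4225 and 3664 CPM (0.867) and at 1.05 in the narrower set.

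Genes for axon guidance and cadherins held members past 1.5-fold in both directions. Of 31 guidance genes 7 were higher (22.6%) and 3 lower (9.68%) past that fold, near the 17.3% and 7.78% of all genes, with a median of 0.29. Past 1.5-fold in the narrower set were 11 of 30 higher and 4 lower, beside 12.1% and 13.3% of all genes, with a median of 0.43. Unc5c, a netrin receptor, was at 287 and 510 CPM (1.77), Epha7 at 359 and 183 CPM (0.509) and Sema5a at 212 and 111 CPM (0.525), while Dcc, a further netrin receptor, was at 1424 and 1175 CPM (0.825) and at 0.541 in the narrower set. Of 22 cadherin genes 6 were higher and 5 lower past 1.5-fold. Pcdh17 was at 251 and 116 CPM (0.461, 0.412 to 0.514) and Cdh11 at 636 and 338 CPM (0.532), against Cdh12 at 325 and 618 CPM (1.90) and Cdh20 at 93.8 and 214 CPM (2.28). These 4 were named for being past 1.5-fold, which 11 of the 22 were not. Tenm3, a teneurin, was at 251 and 482 CPM (1.92) and 3.61 in the narrower set. Cdh18, which set members apart from both reference sets, was at 2306 and 1372 CPM (0.595) in all members and at 2953 and 2838 CPM (0.961) in the narrower set.

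Cholesterol synthesis genes were lower for 15 of 20 members of the list, with a median of -0.26, and for 16 of 19 in the narrower set, with a median of -0.39. Over all genes 40.9% were lower in members and 49.3% in the narrower set. Lower past 1.5-fold were 2 of 20 and 8 of 19, beside 7.78% and 13.3% of all genes. Sqle, squalene epoxidase, was at 30.7 and 18.8 CPM (0.613, 0.456 to 0.815) and at 0.331 in the narrower set. Transcripts of the mitochondrial genome were higher for 12 of 12 (59.1% of all genes), with a median of 0.87 in members and 0.61 in the narrower set. mt-Co3 was at 147 and 262 CPM (1.78) in members, at 2.17 and 2.48 in the reference sets, and at 277 and 454 CPM in all other kept barcodes, which places the difference in the whole WBRT-28d library. The 8 abundant neuronal transcripts chosen to track free RNA had 1 gene higher and a median of -0.22. Nuclear respiratory chain genes had a median of 0.05, with none of 24 past 1.5-fold.

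The study asked about senescence after irradiation, and its genes were sparse in these neurons. Cdkn1a, the p21 cell cycle inhibitor, had 11 UMIs in 10 of 542 ShamRT-28d members and 17 UMIs in 15 of 382 WBRT-28d members, or 1.83 and 4.77 CPM (2.60, 1.15 to 6.14). Nuclei of the narrower set held 4 and 8 UMIs of it, or 1.07 and 8.01 CPM (7.47, 2.00 to 33.9). The ratio was 1.09 in Cux2 and 0.418 in Rorb nuclei. Cdkn2a, the p16 gene, had 4 and 1 UMIs (0.421, 0.00854 to 4.25), and no difference was detectable at this depth. Trp53 was at 11.8 and 15.4 CPM (1.30, 0.900 to 1.88). The interval of Trp53 includes 1. Of 22 measured p53 targets 11 were higher and 11 lower, with a median of 0.02, and of 19 double-strand break repair genes 11 were higher, with a median of 0.07. In the narrower set 4 of 17 p53 targets were higher and 13 lower (median -0.06). Past 1.5-fold there were 0 higher and 4 lower, beside 12.1% and 13.3% of all genes. Of 16 repair genes 7 were higher there (median -0.03). Of 10 cell cycle and senescence genes 8 were higher (median 0.19), against 4 of 8 in the narrower set. Over all genes 59.1% were higher in members and 50.7% in the narrower set.

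Nrg1, a growth factor that the study names among secreted senescence factors and that neurons express, was at 4054 and 3354 CPM in members (0.827, 0.809 to 0.846) and at 4362 and 3827 CPM in the narrower set (0.877). Of the whole list, 13 of 16 measured genes were higher, 10 of them past 1.5-fold, with a median of 0.82, where 59.1% of all genes were higher and 17.3% past 1.5-fold. In the narrower set 9 of 10 were higher, 5 of them past 1.5-fold, with a median of 0.63 (50.7% and 12.1% of all genes). Egfr, a growth factor receptor, was at 7.83 and 48.5 CPM (6.19, 4.46 to 8.74) in members but had only 4 and 8 UMIs in the narrower set. Astrocyte genes summed to 191 and 500 CPM in the same members, and their part was not tested. Interferon response genes were higher for 11 of 11 (median 0.75) in members and for 5 of 7 in the narrower set (median 0.19). Glucocorticoid response genes were higher for 9 of 11 (median 0.42), with Zbtb16, a zinc-finger factor, at 141 and 247 CPM (1.75, 1.59 to 1.92) and at 1.86 in the narrower set, and Fkbp5, a chaperone cofactor of the receptor, at 30.8 and 64.8 CPM (2.10) and at 1.45. Both of these glucocorticoid targets were higher in members and in the narrower set. Circadian clock genes, a list that includes Rorb, were higher for 12 of 15 (median 0.23). Past 1.5-fold were 2 of them (13.3%), where 17.3% of all genes were. Heat shock genes were higher for 7 of 13 (median 0.05). Hsp90aa1, a cytosolic chaperone, was at 71.3 and 127 CPM (1.79, 1.56 to 2.04) and 1.85 in the narrower set.

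**Figure D5:**
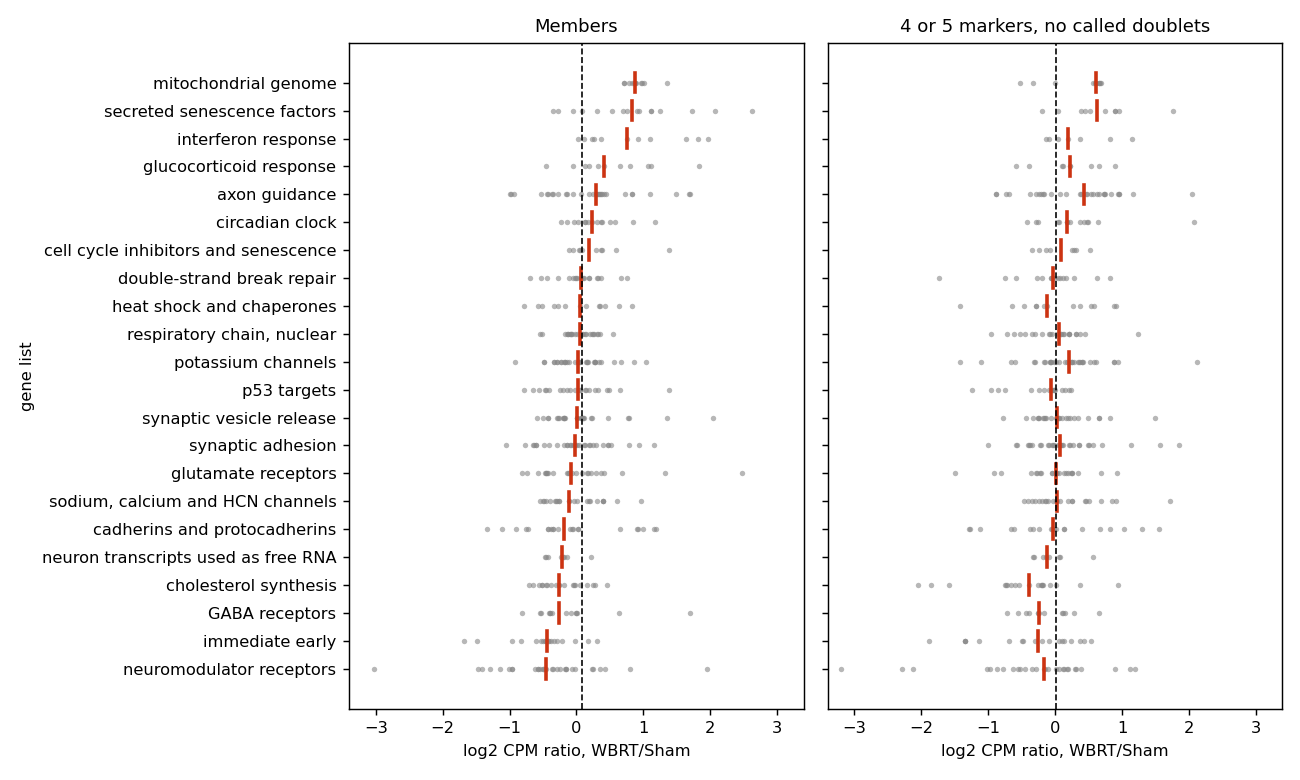
log2 CPM ratio of WBRT-28d over ShamRT-28d for each measured gene (grey points, at least 20 UMIs) of 22 gene lists, with the list median in red and the median of all measured genes as a dashed line, in all members and in the narrower set. Points beyond 3.2 on either side are drawn at that value. Neuromodulator receptors have the lowest median (-0.45) and the mitochondrial genome the highest (0.87) in members; in the narrower set cholesterol synthesis is lowest (-0.39).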

How the data were processed

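Nuclei from frozen whole mouse brains were sequenced with the 10x Genomics Chromium 3′ assay. Reads were processed by the authors with Cell Ranger 5.0.0 against a custom mm10 pre-mRNA reference, so that intronic reads entered the UMI counts, and the deposited matrices hold these counts per gene and barcode, with no normalization. Seurat 3.0 and R 3.5.3 are listed in the notes of the submitters as well. Barcodes under 500 detected genes or over 5% mitochondrial UMIs were dropped here. Median depth was 2291 UMIs per barcode in ShamRT-28d and 2565 in WBRT-28d, so low-level genes rest on few UMIs. Doublets were called with Scrublet in scanpy 1.11.5 within each library and were kept in the main values. For each set of nuclei, summed UMIs were expressed as CPM (Python 3.11.15, pandas 2.3.3, scipy 1.17.1). Ratios of WBRT-28d over ShamRT-28d carry exact conditional binomial intervals, CPM values exact Poisson intervals and shares Clopper-Pearson intervals, all at 95% and for counting error only. No test between conditions was made, because each had 1 library. Gene coordinates are those of the mm10 annotation. The ratio step was run on simulated counts drawn independently from the pooled profile of the members. That simulation left out the clustering of UMIs within nuclei, so it cannot check the intervals against it.

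The members and gene lists were chosen with earlier results of these data known. Genes were named by a rule: the rule's genes and markers, the 12 genes per direction whose interval bound nearest to 1 lay farthest from it (at least 100 UMIs over the members, and as high in members as in other barcodes in the library where the gene is higher, a limit that 11 of the higher and 2 of the lower genes met in that library only), per function list the 2 genes with the most UMIs and those past 1.5-fold with at least 100 UMIs, the genes Cdkn1a, Cdkn2a, Trp53 and Nrg1 that the study names, and the 12 genes per reference set with the largest smaller ratio. Genes lower than a reference set were named as the leading ones in the same ranking. Numbered predicted genes, mitochondrial genes and Xist and Tsix were left out of the 12 per direction. Alternatives covered called doublets, the number of deep-layer genes, mitochondrial and depth limits, layer 6b nuclei, thinning, scaling, the weight of a nucleus and the UMI minimum. 1 gene covered by this rule is not reported here.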

Additional observations from a re-analysis of the deposited data

Results flagged for a closer look

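For 4 of the leading genes the ratio of WBRT-28d over ShamRT-28d in members and in a reference set lay on opposite sides of 1, with both intervals excluding 1. Other leading genes also lay on opposite sides, but with a reference interval that includes 1, such as Pdzrn4 (0.358 in members, 1.04 and 1.10 in the reference sets). The difference between the sets was not tested. Bnc2 was at 7.61 in members and 0.174 in Rorb nuclei. Smoc2 was at 2.50 in members and 0.516 in Cux2 nuclei, and Nell1 at 2.05 in members and 0.869 in Rorb nuclei. Mgat4c went the other way, at 0.435 in members and 1.46 in Rorb nuclei. Each condition had 1 library, and the Bnc2 value rested on 15 WBRT-28d nuclei.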

How the results depend on the processing

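The share of members in kept barcodes was lower in WBRT-28d under every alternative run for it. It was 2.18% in WBRT-28d without called doublets, 3.21% and 0.881% in ShamRT-28d and WBRT-28d with at least 4 of the 5 deep-layer genes, 3.30% and 0.846% when called doublets were also left out, 3.10% and 0.678% when at most 1 UMI of Cux2 and Rorb was also asked, 2.17% in WBRT-28d with 1 doublet score limit for both libraries, and 3.16% and 0.868% after thinning. The count of genes at least 1.5-fold higher in WBRT-28d was 999, and became 566 without called doublets, 392 in the narrower set, 365 with the Cux2 and Rorb limit, 2310 at a minimum of 20 UMIs and 304 at 400 UMIs. The count of lower genes was 450, and became 1041 at 20 UMIs and 159 at 400 UMIs. Of the 22 gene lists, 13 had a median ratio above 1, against 7 after centring on the median of all genes and 8 with the mean of each nucleus CPM. The cause of these shifts was not tested, except that the UMI minimum and the narrower sets change the genes tested and the nuclei. Among ratios of named genes, 168 values stayed within the interval of the main value and 71 did not, and none under these alternatives lay on the other side of 1, whereas with 3, 4 or 5 deep-layer genes taken apart some did, such as Rmst at 0.306 (5 genes), Plcxd2 at 0.509 (4), Prss35 at 2.37 (3) and Col12a1 at 1.64 (3), each with an interval that includes 1. Bnc2 gave no value with the Cux2 and Rorb limit. The narrower sets, that limit and the shared score limit were chosen after the data were seen. No paired analysis was possible because each condition had 1 library. No library could be left out for the same reason.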
